A study of Mus musculus with 6 samples.

Results

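The transforming growth factor beta (TGF-beta) genes described here were the 3 ligand genes Tgfb1, Tgfb2 and Tgfb3, the 3 receptor genes Tgfbr1, Tgfbr2 and Tgfbr3, and the 4 genes of the latent TGF-beta binding proteins, Ltbp1, Ltbp2, Ltbp3 and Ltbp4. They were taken by symbol from the count table, where all 10 were found among 45703 genes. RNA was sequenced from 6 biological replicate cultures grown from dorsal root ganglia, which lie beside the spinal cord and hold the cell bodies of sensory neurons together with glia. The mice were wild type, of the strain C57BL/6 and adult, aged 4 to 6 weeks. Every culture had the same treatment: dissociated ganglia grew for 7 days in medium that held 10% fetal calf serum, EGF and FGF (the growth factors at 10 ng/ml), and RNA of 2 dishes was pooled per sample. The cells were therefore a mixture, with no purification of one type, and the serum in all cultures can itself carry growth factors. There was 1 group, so the measurements below are levels, their spread between cultures and the order of genes within a library. The labels call the samples biological replicates without saying whether each came from separate mice, so the spread may include technical differences.

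TGF-beta is secreted as a dimer still held by its own propeptide, the latent form, and most cells secrete it joined to a latent TGF-beta binding protein, which anchors it in the extracellular matrix. Once released, the ligand binds the type II receptor (Tgfbr2), which phosphorylates the type I receptor (Tgfbr1), and this in turn phosphorylates the transcription factors Smad2 and Smad3; the type III receptor (Tgfbr3, betaglycan) has no kinase and presents ligand, above all TGF-beta 2, to the others. In peripheral nerve the pathway is known for acting on Schwann cells after injury and on matrix production by fibroblasts.

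Upstream sequence is shown for 3 members, chosen because Tgfb1 and Tgfb2 were the ligands with the highest and the lowest length-scaled level and Ltbp2 was the member that differed most between cultures. The RefSeq promoter table (GRCm38.p6) held windows for 8 of the 10 members. The bases before the annotated start are given 5′ to 3′ on the gene's strand, without bases that annotated exons of the gene or, at its outer end, its span cover: chr7:25686752-25687001 on the plus strand for Tgfb1, chr1:186705990-186706239 on the minus strand for Tgfb2 and chr12:84876559-84876741 on the minus strand for Ltbp2. The Tgfb2 window lies inside the span of the gene, because a longer gene model starts further upstream. Capitals mark matches, on either strand, to 3 motifs: the GC box GGGCGG, the core of Smad binding CAGAC, and the TATA box TATAAA.
Tgfb1: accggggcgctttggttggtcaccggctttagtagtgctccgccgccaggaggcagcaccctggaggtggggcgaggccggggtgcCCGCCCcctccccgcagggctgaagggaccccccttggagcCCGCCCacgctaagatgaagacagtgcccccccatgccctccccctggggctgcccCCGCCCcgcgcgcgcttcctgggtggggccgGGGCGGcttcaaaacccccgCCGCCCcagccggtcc
Tgfb2: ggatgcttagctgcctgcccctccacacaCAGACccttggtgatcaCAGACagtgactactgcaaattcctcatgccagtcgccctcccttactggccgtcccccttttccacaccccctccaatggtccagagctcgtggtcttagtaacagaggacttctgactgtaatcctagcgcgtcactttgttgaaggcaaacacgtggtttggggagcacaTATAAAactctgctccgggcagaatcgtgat
Ltbp2: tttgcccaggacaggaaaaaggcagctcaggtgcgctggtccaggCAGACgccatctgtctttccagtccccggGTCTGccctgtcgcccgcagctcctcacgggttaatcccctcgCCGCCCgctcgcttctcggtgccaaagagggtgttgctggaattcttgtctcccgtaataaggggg
The Tgfb1 window had 5 GC boxes, a G and C content of 75.2%, and no match to the other motifs. The Tgfb2 window had a TATA box close to the start and 2 matches to CAGAC, with a G and C content of 53.6%. The Ltbp2 window had 2 matches to CAGAC and 1 GC box, with a G and C content of 61.7%. AP-1 (TGANTCA) and TEAD (GGAATG) motifs were also searched and had no match in these windows. Over 32851 promoter windows of 250 bases, GGGCGG occurred in 32.7%, CAGAC in 42.2%, TATAAA in 12.4%, TGANTCA in 6.75% and GGAATG in 12.6%, and the median G and C content was 52.4%. These matches describe the letters only.

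The 6 libraries held 20070639 to 22968642 counts, and all 10 members passed the filter on low counts. The markers of the labelled tissue were present: all 10 genes of a neuron list and all 8 of a glial lineage list reached 1 CPM (the count of a gene scaled to its library total) in every culture. The levels of marker genes differed between the cultures. The summed level of the 8 glial lineage genes was 8039 CPM in replicate 1 and 5521 CPM in replicate 5, and that of 8 fibroblast genes from 3341 to 14106 CPM in the same libraries. Most of the fibroblast sum was collagen, with Col1a1 at 3755 CPM, Col1a2 at 3899 CPM and Col3a1 at 5678 CPM in replicate 5. The sum of 8 macrophage genes was 14.5 CPM in replicate 1 and 158 CPM in replicate 5, that of 8 endothelial genes 10.8 and 142 CPM, and that of 8 mural genes 271 and 1521 CPM. Of these, 5 macrophage, 3 endothelial and 5 mural genes reached 1 CPM in every library. Cdh5 alone had 75.3 CPM of the endothelial sum in replicate 5. The neuron and perineurial lists took another order: the 10 neuron genes summed to 2181 CPM in replicate 3, 1785 CPM in replicate 1 and 1013 CPM in replicate 5, and 6 perineurial genes to 639 CPM in replicate 2, 500.3 CPM in replicate 1 and 394 CPM in replicate 5. Most of the perineurial sum was the count of 1 gene, Itgb4, at 572 CPM in replicate 2, 434 CPM in replicate 1 and 299 CPM in replicate 5. The mean log2 score of the perineurial list, which weights its genes equally, ran the other way, from 2.61 in replicate 1 to 3.53 in replicate 5. That score leaned on genes near the floor, as only 3 of the 6 reached 1 CPM in every library. Krt19 went from 0 to 2.63 CPM and Msln from 0.0435 to 3.25 CPM between these libraries, and Lypd2 had no counts. Slc2a1 went from 50.1 to 69.6 CPM and Cldn1 from 16.1 to 19.4 CPM. In such bulk samples, fewer cells of a type and less RNA per cell cannot be told apart.

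Among the ligands, Tgfb1, the most widely expressed of the family, had a lowest value of 36.4 CPM, a median of 44.9 CPM and a highest value of 73.2 CPM. Its mean was 49.2 ± 13.6 CPM (SD, n = 6), and replicate 5 stood above the others. Tgfb3, known for its part in palate closure and wound healing, had 15.5 CPM in replicate 1, a median of 61.3 CPM, 95.4 CPM in replicate 5 and a mean of 54.5 ± 29.3 CPM (SD, n = 6). Replicates 1 and 2 were low for Tgfb3, at 15.5 and 25.8 CPM, and replicates 3, 4 and 6 lay close together between 59.7 and 67.5 CPM. Tgfb2, the ligand that depends most on betaglycan, was the scarcest member, with a lowest value of 6.84 CPM, a median of 17.2 CPM, a highest value of 28.7 CPM and a mean of 16.2 ± 8.09 CPM (SD, n = 6). It had the same low pair, replicates 1 and 2 at 6.84 and 7.83 CPM.

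Levels of different genes were compared after division by the combined exon length, as CPM per kb. On that scale the ligands summed to 40.5 ± 14.6 CPM per kb (SD, n = 6), of which Tgfb1 took 58.4% ± 12.6, Tgfb3 37.3% ± 11.7 and Tgfb2 4.31% ± 0.990. The division between Tgfb1 and Tgfb3 was not fixed: Tgfb1 took 75.8% and 71.8% in replicates 1 and 2 and between 45.3% and 56.9% in the other libraries. Tgfb1 exceeded Tgfb3 in 5 of 6 libraries, by 0.68 ± 0.805 on the log2 scale, which did not pass (exact sign-flip permutation over libraries, p = 0.0938, adjusted p = 0.111 over 45 pairs of members). Tgfb2 was below both other ligands in every library. The size of its share depends on the length used: its combined exon length was 8913 bases and its longest GENCODE M21 transcript 5116 bases. The shorter length would raise its share, and the shares were not computed with it.

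**Figure D1:**
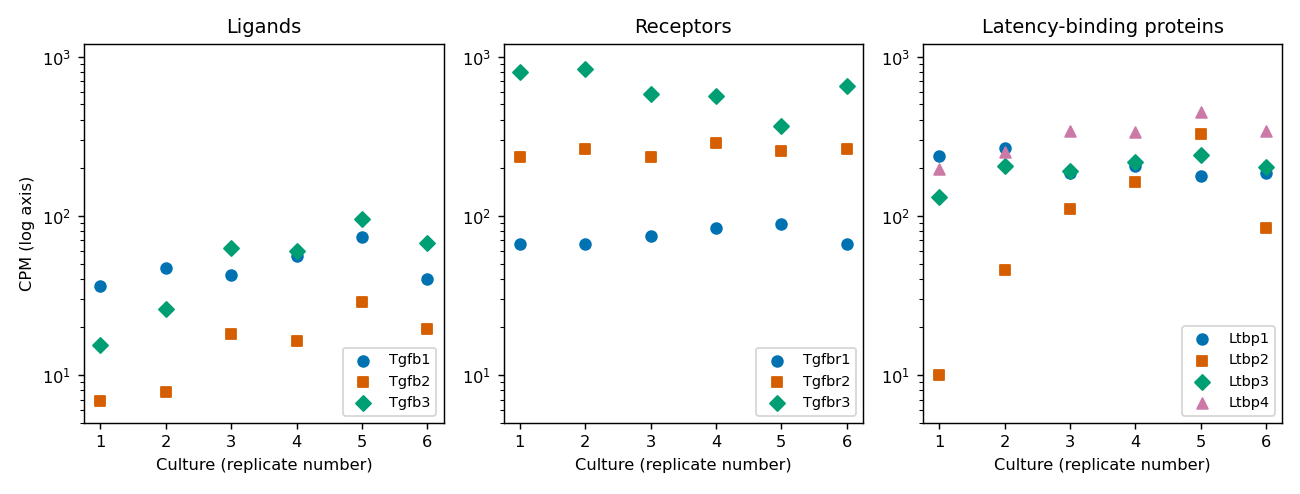
Values of the 10 members in each of the 6 cultures, as CPM on a log axis; each point is 1 library, and the replicate numbers on the horizontal axis have no order. Tgfb2, Tgfb3 and Ltbp2 are low in replicate 1 and high in replicate 5, whereas Tgfbr3 is lowest in replicate 5 at 365 CPM and Tgfbr2 stays between 234 and 285 CPM.

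The receptors differed from one another in level and in spread. Tgfbr3, betaglycan, had the highest mean of all 10 members, 632 ± 171 CPM (SD, n = 6). Its values were 796, 833, 581, 564, 365 and 651 CPM in replicates 1 to 6, and in replicate 5 Ltbp4 was above it, at 451 CPM. Replicates 1 and 2, where Tgfb2 and Tgfb3 were low, were at the top for Tgfbr3, and replicate 5 was at the bottom. Tgfbr2, the ligand-binding kinase, was the steadiest member: its lowest value was 234 CPM, its median 258 CPM, its highest 285 CPM and its mean 255 ± 19.5 CPM (SD, n = 6). Tgfbr1, the signalling kinase, ran from 66.6 CPM over a median of 70.9 CPM to 89.0 CPM, with a mean of 74.6 ± 9.78 CPM (SD, n = 6) and its top values in replicates 4 and 5.

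Per kilobase, Tgfbr3 made up 60.3% ± 8.01 of the receptor sum, Tgfbr2 32.2% ± 5.86 and Tgfbr1 7.44% ± 2.23 (SD, n = 6). The order Tgfbr3, Tgfbr2, Tgfbr1 held in all 6 libraries. In replicate 5 the lead of Tgfbr3 over Tgfbr2 was small, 59.9 against 53.0 CPM per kb, while in replicate 1 it was 131 against 49.1 CPM per kb. Over the 6 libraries, the difference between them was 0.91 ± 0.456 on the log2 scale (SD, n = 6), with p = 0.0312 in the exact sign-flip permutation test, the smallest that 6 libraries allow, and an adjusted p of 0.0426 over 45 pairs. The ratio of the receptor sum to the ligand sum ranged from 1.96 in replicate 5 to 8.63 in replicate 1, with a mean of 4.86 ± 2.40 (SD, n = 6). The receptor shares, the small lead in replicate 5 and this ratio depend on the length used. The combined exon length of Tgfbr2 was 4788 bases and its longest GENCODE M21 transcript 8092 bases. The longer length would lower the level of Tgfbr2 per kb, and the shares and the ratio were not computed with it.

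**Figure D2:**
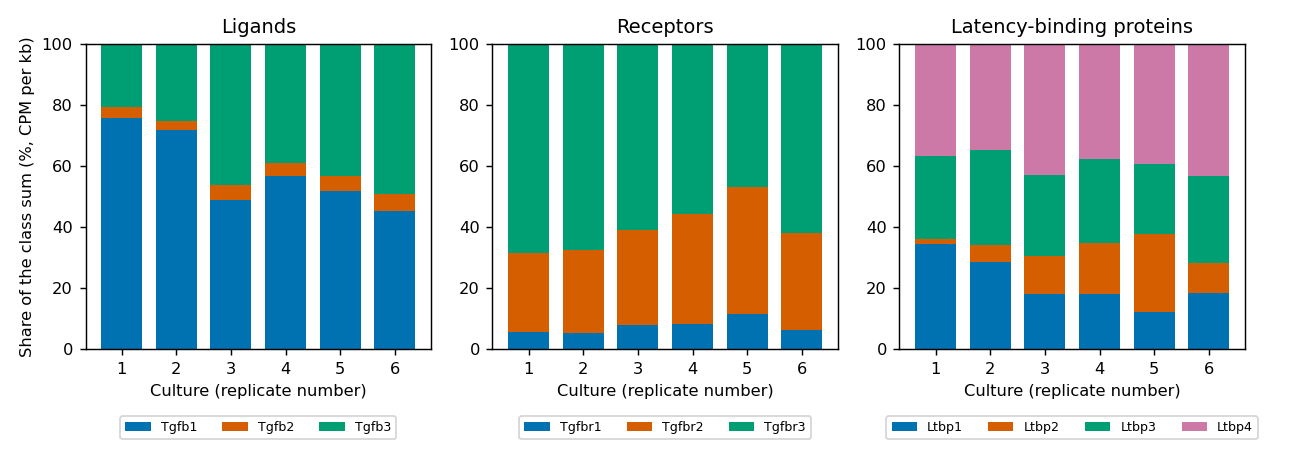
Share of each gene in the summed CPM per kb of its class, in percent, for each culture; each bar is 1 library. Tgfb1 takes 75.8% of the ligand sum in replicate 1 and 51.7% in replicate 5, and Ltbp2 takes 1.68% and 25.5% of the Ltbp sum in the same libraries.

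Among the latency proteins, Ltbp4, which also acts in elastic fibre assembly, had the highest mean level. Its lowest value was 197 CPM, its median 337 CPM, its highest 451 CPM and its mean 320 ± 87.2 CPM (SD, n = 6). Ltbp1, the first described carrier of latent TGF-beta, averaged 209 ± 34.9 CPM (SD, n = 6), between 178 (replicate 5) and 266 CPM (replicate 2), with a median of 195 CPM. It was high in replicates 1 and 2 and lowest in replicate 5, the opposite of Ltbp4.

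Ltbp3, a carrier known from skeletal and tooth development, averaged 198 ± 36.7 CPM (SD, n = 6), from 131 CPM in replicate 1 over a median of 204 CPM to 240 CPM in replicate 5. Outside replicate 1 its values lay between 191 and 240 CPM.

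Ltbp2, which binds fibrillin microfibrils and, unlike the other 3, does not carry latent TGF-beta, had values of 10.0, 45.3, 110, 164, 327 and 84.2 CPM in replicates 1 to 6. Its mean was 123 ± 113 CPM (SD, n = 6). Replicate 1 was far below and replicate 5 far above the rest. The highest library was 32.0 times the lowest after scaling by the trimmed mean of M-values (TMM). That ratio rested on both end libraries, being 6.98 without replicate 1, 16.1 without replicate 5 and 3.50 without both. Per kilobase Ltbp2 took from 1.68% (replicate 1) to 25.5% (replicate 5) of the Ltbp sum, while Ltbp1 took from 12.1% (replicate 5) to 34.5% (replicate 1). The shares of Ltbp4 (39.1% ± 3.41) and Ltbp3 (27.4% ± 2.67) were steadier (SD, n = 6). The Ltbp sum was 133 ± 33.1 CPM per kb, and its ratio to the ligand sum was 3.41 ± 0.450, between 2.90 and 3.98 (SD, n = 6). This sum includes Ltbp2, which is no carrier and whose share was largest in replicate 5, so it is not a ratio of carriers to ligands. A ratio without Ltbp2 was not computed.

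Ordered by mean CPM per kb, the members were Tgfbr3 (104 ± 28.1), Tgfbr2 (53.3 ± 4.07), Ltbp4 (52.4 ± 14.3), Ltbp3 (36.0 ± 6.69), Ltbp1 (26.8 ± 4.47), Tgfb1 (22.6 ± 6.24), Ltbp2 (18.2 ± 16.6), Tgfb3 (16.1 ± 8.65), Tgfbr1 (12.1 ± 1.59) and Tgfb2 (1.82 ± 0.908; SD, n = 6 each). Tgfbr3 exceeded 96.7% of the tested genes on this scale and Tgfb2 exceeded 21.1%. Of the 9 neighbouring pairs in this order, 3 kept the same order in all 6 libraries and passed. These were Tgfbr3 over Tgfbr2, Ltbp4 over Ltbp3 by 0.51 ± 0.218, and Tgfbr1 over Tgfb2 by 2.81 ± 0.635 on the log2 scale (SD, n = 6). Each had an adjusted p of 0.0426 in the exact sign-flip permutation test. The other 6 neighbouring pairs did not pass, with adjusted p from 0.111 (Ltbp3 and Ltbp1) to 0.703 (Tgfbr2 and Ltbp4) in the same exact test. Tgfbr3 exceeded Ltbp4 in 5 of 6 libraries, by 0.98 ± 0.821 on the log2 scale (SD, n = 6), which did not pass either (same exact test, adjusted p = 0.0804). In replicate 5 Ltbp4 was higher, at 74.0 against 59.9 CPM per kb. Over all 45 pairs, 33 had the same order in every library, and these 33 passed. With 6 libraries any pair of constant order gets the same smallest p in this test, whatever the size of its difference. Passing therefore restates the constant order and adds nothing to it.

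The place of Tgfbr2 depended on its length. With the longest GENCODE M21 transcript of 8092 bases in place of the combined exon length of 4788 bases, a choice made once the data were known, the difference of Tgfbr2 from Ltbp4 was -0.86 on the log2 scale (exact sign-flip permutation, adjusted p = 0.0469). Its difference from Ltbp3 was then -0.25 (adjusted p = 0.0804 in the same exact test) instead of 0.58. The rank by mean of Tgfbr3 at the top and of Tgfb2 at the bottom did not depend on this choice.

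**Figure D3:**
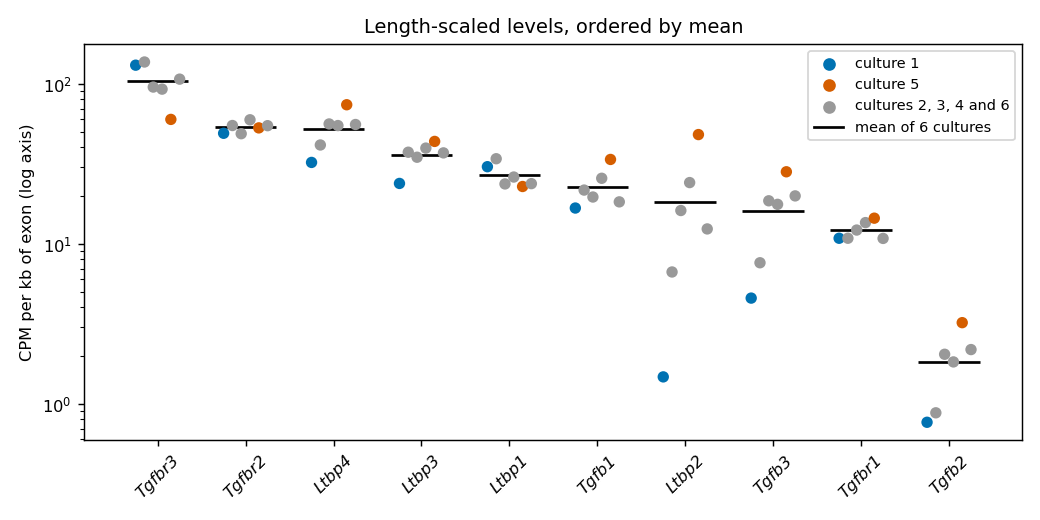
CPM per kb of combined exon length (log axis) for the 10 members, ordered by mean; points are libraries and the line is the mean of 6. Replicate 5 is the lowest point for Tgfbr3 and Ltbp1 and the highest for Tgfb1, Tgfb2, Tgfb3, Tgfbr1, Ltbp2, Ltbp3 and Ltbp4.

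All 10 members varied between cultures by more than counting noise. The test compared the counts of a gene in the 6 libraries with the TMM-scaled library sizes (chi-square, Benjamini-Hochberg adjustment over 14998 genes). It called 76.3% of all genes tested, so the call by itself sets the members apart little. The largest adjusted p among the members was 2.4e-22, for Tgfbr1. The size of the spread says more. The coefficient of variation between cultures (SD over mean, TMM-scaled) had a median of 26.6% over the members and 12.1% over all genes tested. It was 91.0% for Ltbp2, above 99.3% of tested genes, 53.1% for Tgfb3 and 49.2% for Tgfb2, and at the other end 8.02% for Tgfbr2 and 12.0% for Tgfbr1. The highest library was at least 2 times the lowest for 5 of 10 members and for 19.2% of all genes tested. These were Tgfb2, Tgfb3, Tgfbr3, Ltbp2 and Ltbp4, at ratios of 4.11, 6.03, 2.37, 32.0 and 2.25. On library totals in place of TMM the count was 6, because Tgfb1 had a ratio of 2.01 there and 1.97 after TMM. Without replicate 5 the count was 3, since the ratios of Tgfbr3 and Ltbp4 were then 1.53 and 1.72. Without replicate 1 it was 4, with Ltbp4 at 1.72 and Tgfb3 at 3.58.

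The members moved in opposite directions between the same libraries. Tgfb1, Tgfb2, Tgfb3, Ltbp2, Ltbp3 and Ltbp4, 6 of the 10, had their lowest CPM in replicate 1 and their highest in replicate 5; 12.9% of all genes tested had that pattern. Taken singly, 7 members were highest in replicate 5 (29.2% of all genes tested), 6 were lowest in replicate 1 (23.8%) and 2 were lowest in replicate 5 (26.2%). Tgfbr3 and Ltbp1 had their highest CPM in replicate 2 and their lowest in replicate 5, and 12.3% of all genes tested were highest in replicate 1 or 2 and lowest in replicate 5. As a description over 6 libraries that also differ in their marker levels, Pearson's r of log2 levels was 0.98 between Tgfb2 and Tgfb3, 0.97 between Ltbp2 and Ltbp4, -0.92 between Tgfb2 and Ltbp1, and 0.06 between Tgfbr2 and Tgfbr3.

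The members were set against 3 marker lists only: glial lineage, fibroblast and macrophage. Of 30 relations between a member and a list score (the mean log2 level of the list), 3 passed the adjustment. The share of all tested genes that would pass against the same scores was not computed. The 3 relations are therefore not shown to be particular to these members. Tgfbr3 followed the glial lineage score, with Pearson's r at 0.97 (p = 0.00139 by exact permutation, 0.0139 after adjustment). Spearman's rho was 1.00 (p = 0.00278 by exact permutation, 0.0278 after adjustment). Leaving out the pair of libraries farthest from the median score, replicates 2 and 5, gave r = 0.85. Tgfb1 followed the fibroblast score, with r = 0.98 and rho = 1.00 at the same p-values, and r was 0.93 without replicates 1 and 5. Among the fibroblast genes, Col1a1 and Col3a1 are also in the list of genes known to respond to TGF-beta described below. Dcn is also in the list of ligand binders, so this score is not separate from the pathway. Ltbp2 followed the macrophage score, with r = 0.93 and rho = 1.00 at the same p-values, and r was 0.91 without replicates 1 and 5. With list medians in place of means, the first 2 of these missed the threshold (r = 0.92 for each; exact permutation, adjusted p = 0.0694 for Tgfbr3 and 0.0521 for Tgfb1).

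The 3 list scores were extreme in the same library: in replicate 5 the glial lineage score was lowest, at 8.49, and the fibroblast and macrophage scores were highest, at 8.34 and 3.79. Which cell type a member's level follows was not tested. The mural, endothelial, perineurial and neuron scores were not tested against the members. Ltbp2 also had r = 0.90 with the fibroblast score (exact permutation, adjusted p = 0.0625), and Tgfbr3 had r = -0.87 with the macrophage score (exact permutation, adjusted p = 0.0648). The order of libraries shared by Ltbp2 and the macrophage score was not particular to macrophage genes. The endothelial score, at 0.651, 1.05, 1.31, 1.68, 3.36 and 1.28 in replicates 1 to 6, took it too, as did the score of the microfibril list described below. Tgfbr1 had r = 0.92 with the fibroblast score (exact permutation, adjusted p = 0.05, not under the threshold of 0.05), and again 0.92 without replicates 1 and 5. Tgfb3 had r = 0.75 with the fibroblast score (exact permutation, adjusted p = 0.113), but r = 0.03 without replicates 1 and 5, so that relation rests on those libraries. Ltbp4 behaved likewise, with r = 0.84 (exact permutation, adjusted p = 0.0806) and 0.06 without them. With the macrophage score, Tgfb3 had r = 0.87 (exact permutation, adjusted p = 0.0625) and 0.61 without replicates 1 and 5. Ltbp4 had r = 0.87 with that score (exact permutation, adjusted p = 0.05) and 0.64 without them. The mural score was 2.88, 3.50, 4.70, 4.69, 5.44 and 4.79 in replicates 1 to 6. Tgfb2, Tgfb3 and Ltbp4, TMM-scaled, put the 6 libraries in the same order as that score, a relation that was not tested. Tgfbr2 had r = -0.06, 0.36 and 0.08 with the glial lineage, fibroblast and macrophage scores, with adjusted p of at least 0.543 (exact permutation). Its r with the glial lineage score was -0.76 without replicates 2 and 5, and those with the fibroblast and macrophage scores were 0.57 and -0.26 without replicates 1 and 5, so the values over 6 libraries rest on the libraries left out. The part of cell mix in the spread of any member was not tested, and the labels give no batch within which to repeat the relations.

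**Figure D4:**
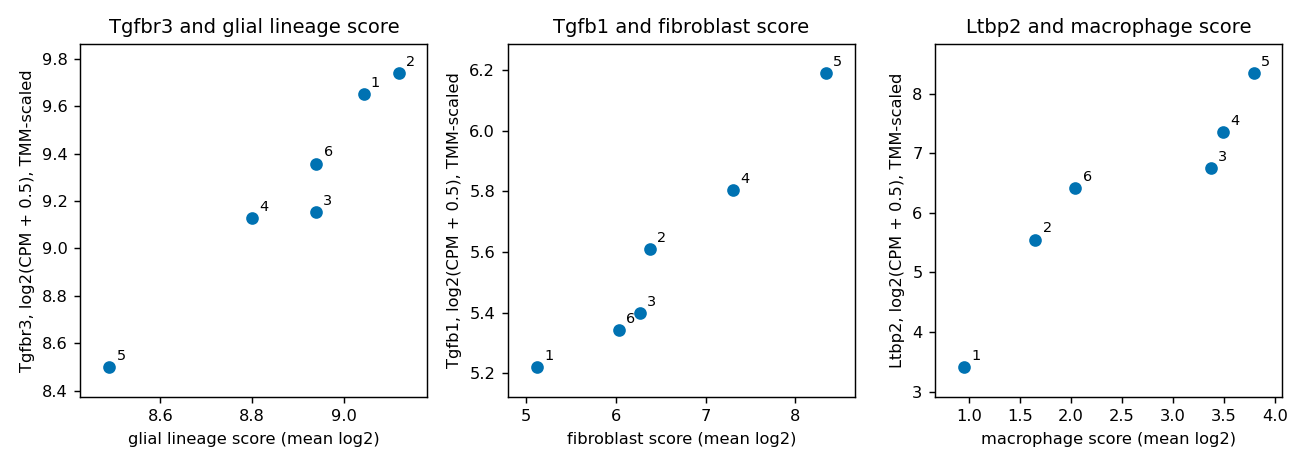
TMM-scaled level of Tgfbr3, Tgfb1 and Ltbp2 (log2, vertical) against the score of the glial lineage, fibroblast and macrophage lists (mean log2, horizontal); each point is 1 culture with its replicate number. The 6 cultures take the same order on both axes in each panel, with replicate 5 at the low end for Tgfbr3 and at the high end for Tgfb1 and Ltbp2.

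For the 6 members, Tgfb1 included, whose highest CPM on library totals was at least 2 times the lowest, the 3 genes with the most similar pattern over the 6 libraries were taken among 10264 genes with a mean of at least 10 CPM. Tgfb2 was closest to Crim1, Smad7 and Rgs5, with r from 0.99 to 1.00; Smad7 is the inhibitory Smad that TGF-beta itself induces, and Rgs5 is a pericyte gene. Tgfb3 was closest to Fpgs, Filip1l and the smooth muscle actin gene Actg2. Tgfb1 was closest to Pdia4, Irf2bp2 and Nrep, and Tgfbr3 to the pseudogene Gm13597, to Dbi and to Psmb1. Ltbp2 was closest to Tmem45a, Tm4sf1 and Arhgdib, a gene of blood cells, and Ltbp4 to Plekha2, Adam15 and Phldb2. Over the same 6 libraries, between 2.16% (Tgfb2) and 5.63% (Tgfb1) of the 10264 genes had r above 0.9 with the member.

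The rest of the pathway was read from 5 lists with 65 genes besides the members. A level of at least 1 CPM in every library was reached by 62 of them, and 63 passed the filter. All 63 varied beyond counting noise, against 76.3% of all genes tested. The median ratio of the highest to the lowest library was 2.23 for these 63 and 1.38 for all genes tested. In 33 of the 63 that passed the filter, replicate 1 was lowest and replicate 5 highest, against 12.9% of all genes tested.

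Among 16 genes that release or hold latent TGF-beta, the integrin chain Itgav averaged 807 ± 127 CPM and its partner Itgb8, which with Itgav binds and activates latent TGF-beta, 618 ± 103 CPM (SD, n = 6). Itgb8 was lowest in replicate 5, at 428 CPM, and highest in replicate 1, at 706 CPM. Itgb6, the other main activating partner, had at most 3 counts in every library and was not detectable at this depth. Lrrc32, which tethers latent TGF-beta to the cell surface, ran from 10.5 (replicate 1) to 174 CPM (replicate 5), and Thbs1, a matrix protein that can activate the latent form, from 114 to 1350 CPM in the same libraries. The propeptide protease Furin was steadier, at 188 ± 19.1 CPM (SD, n = 6). Lrrc32 and Thbs1 were among the widest of this list. Over its 14 genes that passed the filter, the median ratio of highest to lowest library was 1.66, and 5 had a ratio of at least 2.

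The 12 genes of microfibrils and elastic matrix, to which the Ltbp proteins attach, had the widest spread of the 5 lists. Their median ratio of highest to lowest library was 16.0, and all 12 were lowest in replicate 1, as were 23.8% of all genes tested. Fibrillin 1 (Fbn1) ran from 84.5 (replicate 1) to 1310 CPM (replicate 5), fibronectin (Fn1) from 233 to 4349 CPM and the crosslinking enzyme Lox from 26.3 to 980.2 CPM. Fibulin 5 (Fbln5) ran from 74.1 (replicate 1) to 243 CPM (replicate 6). The sum of the fibroblast genes given above moved in the same direction between replicates 1 and 5.

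Of the 10 accessory receptors and ligand binders, the proteoglycan Bgn, which binds TGF-beta and whose count was fractional in 5 libraries, ran from 94.6 (replicate 1) to 2319 CPM (replicate 5). Endoglin (Eng), a co-receptor of endothelial cells, ran from 5.05 to 33.6 CPM in the same libraries, and the decoy receptor Bambi stayed between 6.32 and 9.89 CPM. The median ratio of highest to lowest library over the 10 was 1.94, with 4 at 2 or more, and 2 of the 10 were lowest in replicate 5.

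The signal transducers varied least. Over 14 Smad genes and regulators the median ratio of highest to lowest library was 1.30. Smad2 averaged 91.6 ± 6.25 CPM, Smad3 86.7 ± 8.74 CPM and the common partner Smad4 177 ± 9.96 CPM (SD, n = 6). The 3 genes of this list with a ratio of at least 2 were the inhibitory Smads Smad6 and Smad7 and the repressor Skil. Smad7 ran from 8.40 (replicate 1) to 20.5 CPM (replicate 5), and Skil from 54.2 to 112 CPM.

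Among 16 genes known to respond to TGF-beta, 14 were lowest in replicate 1 and 13 highest in replicate 5. Of all genes tested, 23.8% were lowest in replicate 1 and 29.2% highest in replicate 5. The median ratio of highest to lowest library was 3.63 for the 16 and 1.38 for all genes tested. The matricellular gene Ccn2 ran from 29.1 to 464 CPM and the actin-binding gene Tagln from 33.0 to 480.1 CPM between replicates 1 and 5. Pmepa1, a feedback inhibitor, ran from 283 (replicate 1) to 641 CPM (replicate 4). The exceptions to the low value in replicate 1 were the matrix gene Tgfbi, lowest in replicate 6 at 97.1 CPM, and the cell cycle inhibitor Cdkn2b, lowest in replicate 3 at 13.1 CPM. Of these 16, Ltbp2 is a member, Skil and Smad7 are also in the Smad list, Col1a1 and Col3a1 are fibroblast markers and Acta2 is a mural marker, so the list is no separate measure of signalling, and the part of cell mix was not tested.

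**Figure D5:**
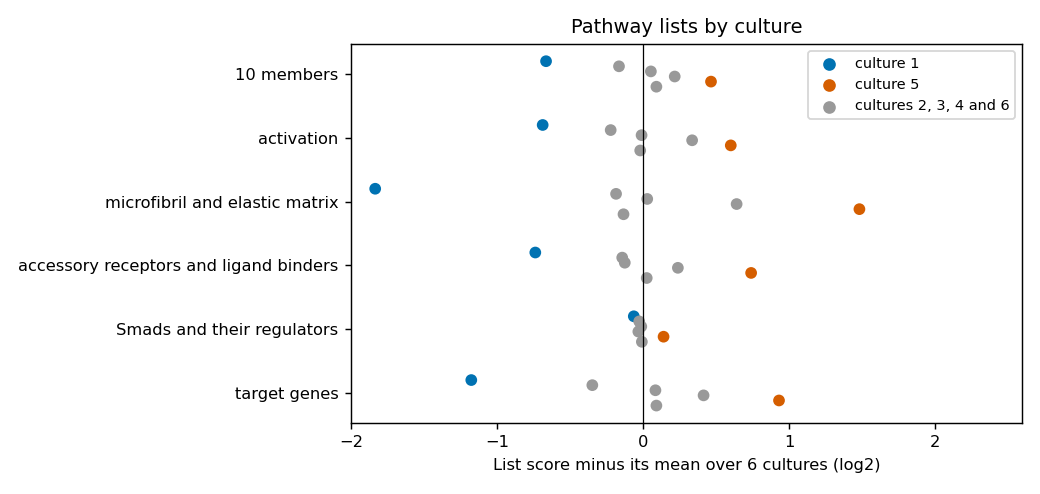
Score of each list (mean log2 TMM-scaled CPM of its genes) minus its mean over the 6 cultures; each point is 1 culture. Replicate 1 is lowest and replicate 5 highest in all 6 rows, with the widest range for the microfibril list (scores 4.60 to 7.92) and the narrowest for the Smad list (5.99 to 6.20). Taken singly, 4 of the 14 genes in the Smad list had that pattern. Their summed level was 1412 CPM in replicate 1, 1429 CPM in replicate 5 and lowest in replicate 6, at 1300 CPM.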

How the data were processed

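RNA of 6 cultures was sequenced from stranded poly-A libraries, per the labels' protocols. The deposited table holds estimated counts per gene, unscaled and partly fractional, and a combined exon length; per the submitters' processing notes, bcl2fastq 2.20.0.422, cutadapt 2.5, STAR 2.7.2b, featureCounts 1.6.4 and the build GRCm38.p6 were used. Strand setting and the handling of multi-matching reads are not given in the sources used here. Counts of Tgfbr3 and Ltbp1 were fractional in 1 library each. Coordinates are 1-based, and those of all 10 members were identical in RefSeq GRCm38.p6.

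CPM was computed on library totals. For the chi-square test, counts were rounded, genes kept with filterByExpr (14998 genes) and libraries scaled by TMM in edgeR 4.0.16 (R 4.3.3); DESeq2 1.42.0 gave alternative size factors. On simulated counts with 1 library changed 2-fold, the test recovered 199 of 200 changed genes among 15619, with 8 other calls. The simulated counts held counting noise only, and the changed genes were drawn above a minimum mean count. The 8 other calls therefore give no error rate for these libraries. Pairs were tested on log2(CPM per kb + 0.1) by two-sided exact sign-flip over 64 patterns, relations on log2(CPM + 0.5) by two-sided exact permutation over 720 pairings, each family with Benjamini-Hochberg adjustment. No 2 libraries agreed within counting noise (lowest median chi-square 2.01, against 0.455 for noise alone); separate libraries of 1 culture could exceed it too, and the 6 are counted as replicates from their labels. Members and lists were chosen with earlier results of these data known. Named genes were the members, list genes, and the 3 most similar genes of each member with at least a 2-fold range. The values of 1 gene of the target list are not reported here, although it counts in that list.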

Additional observations from a re-analysis of the deposited data

Results flagged for a closer look

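Over 37 measures (the members, the marker and pathway list scores, and the class sums, shares and ratios), a library was sought whose gap to its nearest neighbour took up more of the range of the 6 than Dixon's 95% limit allows. One was found, the score of the Smads and their regulators: replicate 5 scored 6.20 and the next library 6.05, a gap of 0.729 of the range. The summed level of the same genes was 1429 CPM in replicate 5 and 1412 CPM in replicate 1, so the gap was not a shift of the whole list. Chance flags about 1 in 20 groups, so a single such value among 37 is not unusual. No explanation was tested.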

How the results depend on the processing

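No paired analysis was possible because all samples belong to 1 group. Mean CPM of each member moved by less than 1 SD under TMM scaling and under DESeq2 size factors. Leaving out single replicates, which cannot move a mean of 6 by 1 SD, gave Ltbp2 means from 82.7 (without replicate 5) to 146 CPM (without replicate 1), against 123 CPM. The 5 members with a ratio of at least 2 between libraries were 6 on library totals, 3 to 5 without single replicates (3 without replicate 5) and 3 without replicates 1 and 5, all counted once the data were known. The count of 10 of 10 members varying beyond counting noise was the same in each alternative run, including without replicates 1 and 5, a choice made once the data were known, as was the GENCODE length; among all tested genes the percentage called lay between 50.2% (no filter) and 76.9% (library totals). The 33 pairs of members in a constant order were 33 with a pseudocount of 1, 32 without length correction, 30 with the longest GENCODE transcript, 33 to 39 without single replicates and 40 without replicates 1 and 5. With 5 libraries the sign-flip test cannot go below 0.0625, so it was not repeated there. Without length correction 7 pairs changed their mean order, and of the pairs that had passed this held for Tgfb1 and Tgfbr1 only (log2 difference 0.86, then -0.63). The number of relations passing, 3, was 3 with a pseudocount of 5, 4 on library totals, where Ltbp4 with the macrophage score passed (exact permutation, adjusted p = 0.0417), and 1 with list medians. The planned coding length from RefSeq proteins was not run, because no protein table was used here. Counting error was small beside the spread: the scarcest member, Tgfb2, had 157 to 600 counts per library.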
